A study of Mus musculus with 8 samples.

Results

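Imprinted genes are expressed mainly or only from 1 parental allele, and 40 such genes of the mouse were followed by locus in neural crest cells and in tumour lines made from them. They were chosen by gene symbol, as genes known to be imprinted in the mouse, with earlier results of these data known. Of the 40, 38 had at least 1 probe set of their own symbol, with 104 probe sets in all, in a table of 18193 genes. H19, the noncoding partner of Igf2, shared its probe set with another symbol, and Zrsr1 had none in the annotation used, so neither was analysed here. The 38 genes lay in 19 loci, and 22 are classed as paternally expressed and 16 as maternally expressed. The classes follow what is known of the mouse, for some genes only in certain tissues or transcripts, as for Ube3a, Inpp5f and Gnas. They do not give the allele used in these cells.

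The samples were 4 lines, numbered 3 to 6, derived from tumours that JoMa1 cells transfected with MYCN had formed in immunocompromised mice, 1 array whose label gives JoMa1 carrying GFP as a control, and 3 arrays of parental JoMa1, with no transfection named. JoMa1 is an established mouse line of neural crest precursor cells, known to carry a Myc transgene that tamoxifen switches on, which all groups then share. Some labels, the source names among them, speak of tumours and others of lines derived from tumours, and they are called lines here. Taken as lines, all 8 samples were cultured JoMa1 cells or lines derived from them, and no group was primary tissue. Each tumour line came from another tumour. MYCN, growth in a mouse and the choice of cells that grew out came together in the tumour lines and cannot be told apart. The labels do not say if separate cultures stood behind the parental arrays, so p-values measure the spread between these samples, which may be technical.

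The targeted gene was looked at first. The brightest Mycn probe set read 14.13, 14.08, 14.20 and 14.26 (log2) in tumour lines 3 to 6, 11.73 on the array labelled GFP-transfected, and 7.29, 7.49 and 7.49 on the parental arrays. That is 4.31 log2 units above parental on the array labelled as the GFP control, which goes against its label. Another Mycn probe set was lower than parental both in the tumour lines (-3.53) and on the GFP-labelled array (-3.80). The GFP-labelled array is therefore kept as a group of its own, named by its label throughout, and it has no replicate. Array medians lay between 6.26 and 6.30. Parental array 3 had a low bioB hybridisation signal, 7.70 against 8.86 to 9.17 for the remaining arrays. Of 14 neural crest markers, Foxd3 (mean 4.68 in tumour lines, 4.56 on the GFP-labelled array, 4.59 in parental cells) and Ngfr (5.36 in tumour lines, 5.56 on the GFP-labelled array, 5.40 in parental cells) were dim in every group. In the tumour lines 4 of the 14 were lower, led by Tfap2b (-5.20), Zic1 (-4.48) and Pax3 (-1.17), and 3 higher, among them Snai1 (1.14). Shares of all genes were 19.4% lower and 16.6% higher.

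In most imprinted loci, DNA methylation is laid down in one parental germ line on a control region. It sets which copy of each gene is expressed, often through a long noncoding RNA or a boundary element. Imprinted genes often act on growth in opposing ways: many paternally expressed genes, such as Igf2 and Mest, favour growth of the fetus, and several maternally expressed ones, such as Igf2r, Grb10, Cdkn1c and Phlda2, restrain it. Several also serve as markers of immature or stem-like cells. The arrays measured RNA of both alleles together, so the allele in use and methylation were not measured.

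The 38 listed imprinted genes were more often lower than higher in the tumour lines. That did not hold for 26 further imprinted genes, of which 6 were higher and 3 lower. Both lists were chosen with earlier results of these data known, so their shares do not test imprinted genes as a class. With a call set at an adjusted p (limma, Benjamini-Hochberg over all genes) under 0.05, 17 of the 38 were lower, 3 were higher and 18 were not called. Over all 18193 genes, 19.4% were called lower and 16.6% higher. With a change of at least 2-fold as well, 10 imprinted genes were lower (Slc38a4, Dlk1, Peg3, Mest, Plagl1, Igf2r, Peg12, Airn, Igf2 and Phlda2) and 1 was higher (Asb4), against 3.93% and 4.92% of all genes. Their median difference was -0.21 log2 units, against 0.01 for all genes. In 18 imprinted genes every tumour line lay below every parental array and in 4 every line lay above, against 23.2% and 21.2% of all genes. Of the 17 lower genes, 7 lay below the median gene in mean level. Of the 19 imprinted genes above it, 10 were lower and 3 higher, against 31.4% and 23.2% of all genes at such levels.

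The paternally expressed genes, 22 of the 38, held most of the falls. Of these 22, 12 were lower and 2 higher in the tumour lines than in parental cells, with a median difference of -0.38. Of 16 maternally expressed genes, 5 were lower and 1 higher, with a median of -0.09. Shares of all genes were 19.4% lower and 16.6% higher. On the GFP-labelled array the order was reversed, with medians of -0.21 for paternally and -0.35 for maternally expressed genes. The difference between the classes was not tested, because genes of 1 locus share their control. Some genes are imprinted only in certain tissues or transcripts, and the allele used in these cells was not measured.

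**Figure D1:**
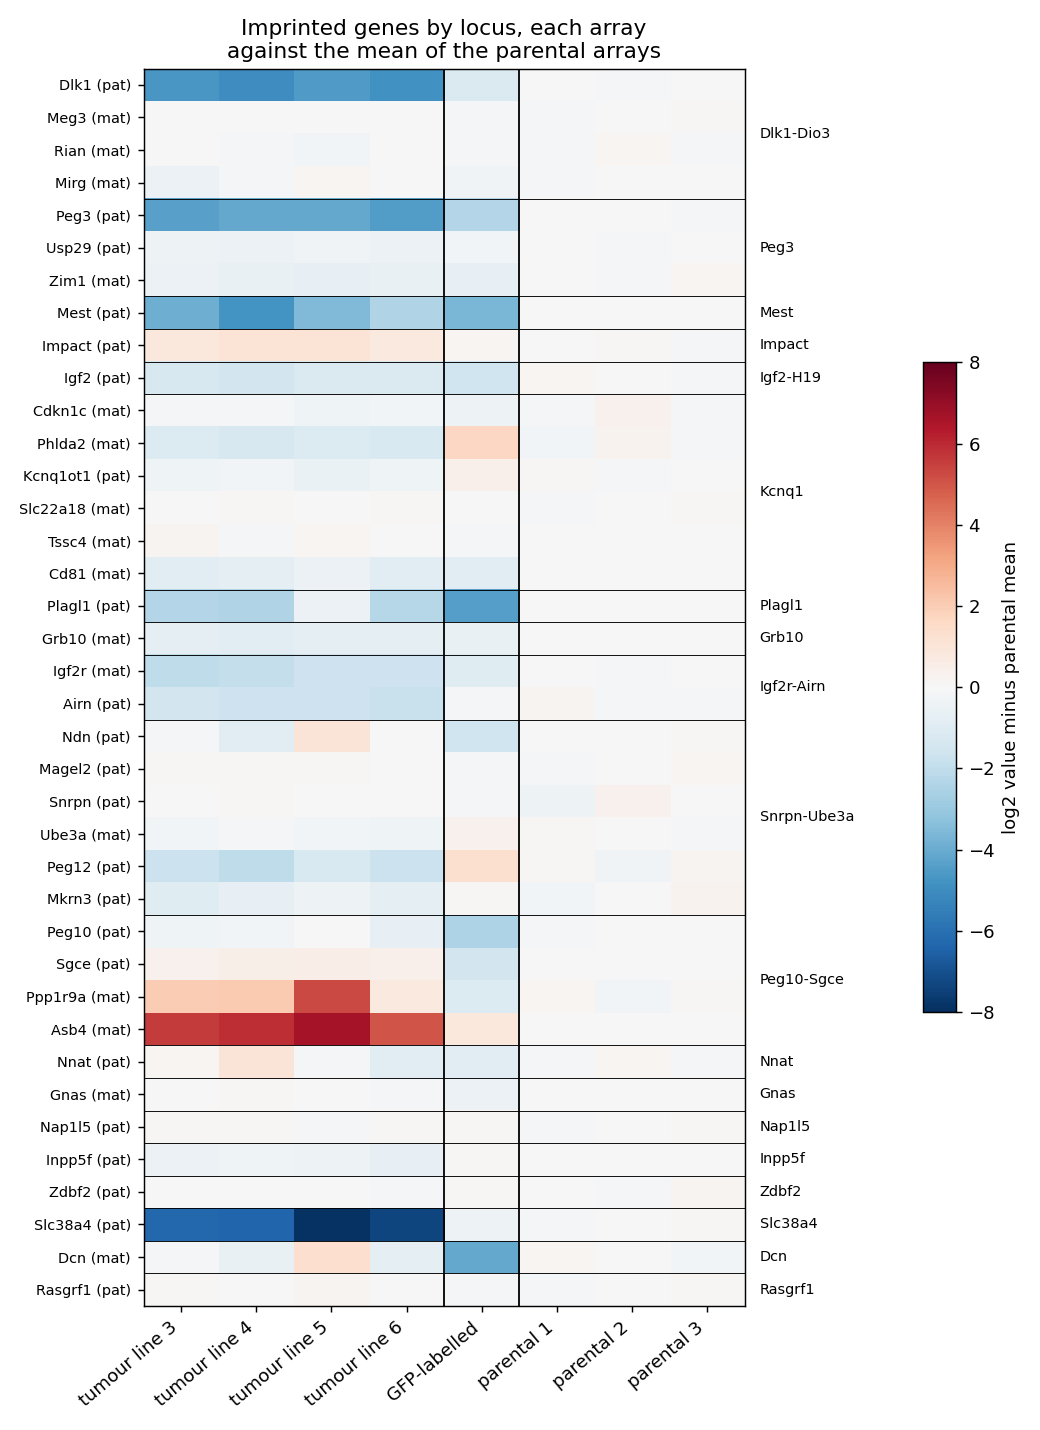
Colour gives each gene's log2 value on an array minus its mean over the 3 parental arrays, for the 38 imprinted genes in locus order (pat, paternally expressed; mat, maternally expressed), with tumour lines 3 to 6 on the left, the GFP-labelled array in the middle and parental arrays on the right. Slc38a4, Dlk1, Peg3 and Mest are blue in all 4 tumour lines, and Asb4 is red in all 4.

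The largest fall was that of Slc38a4, a paternally expressed amino acid transporter known in the placenta and liver. Slc38a4 read 5.30, 5.27, 3.70 and 4.23 (log2) in tumour lines 3 to 6, 11.20 on the GFP-labelled array, and 11.52, 11.58 and 11.71 in parental cells. All 4 tumour lines lay far below the other 4 arrays, which stayed close together. The difference from parental cells was -6.98 (SE 0.37, adjusted p = 3.55e-06, limma), 126-fold lower, while the GFP-labelled array differed from parental cells by -0.40 and was not called. A second Slc38a4 probe set was lower by 5.66. The genes that adjoin it in the RefSeq gene order, the related transporter genes Slc38a1 and Slc38a2 on one side and Amigo2 on the other, differed by 0.17, -0.03 and 0.09 and were not called. Further out, Pced1b (-0.36) and Rpap3 (-0.38) past Amigo2 were called lower, and Scaf11 (-0.03) on the other side was not called.

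Promoters are shown for 3 of the 4 genes that fell most, because imprinted control often acts through CpG methylation. That of Dlk1, the other gene, holds 9 CpG and is not printed. Each sequence is 300 bases around a RefSeq gene start in GRCm38.p6, on the gene's strand, with every CpG in capitals. Slc38a4 (chr15:97020310-97020609, minus strand) has 5 CpG in these 300 bases, Peg3 (chr7:6730370-6730669, minus strand) has 13 and Mest (chr6:30737800-30738099, plus strand) has 17. Slc38a4 and Mest each have 3 promoters in the set. That with the most CpG is printed, and among ties that with the lowest coordinate. All 3 of Slc38a4 hold 5 CpG.
Slc38a4 promoter: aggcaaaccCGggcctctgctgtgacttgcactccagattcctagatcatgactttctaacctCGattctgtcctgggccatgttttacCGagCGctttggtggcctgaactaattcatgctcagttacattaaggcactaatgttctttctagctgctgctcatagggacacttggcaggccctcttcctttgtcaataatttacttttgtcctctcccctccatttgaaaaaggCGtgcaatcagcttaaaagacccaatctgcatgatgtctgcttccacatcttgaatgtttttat
Peg3 promoter: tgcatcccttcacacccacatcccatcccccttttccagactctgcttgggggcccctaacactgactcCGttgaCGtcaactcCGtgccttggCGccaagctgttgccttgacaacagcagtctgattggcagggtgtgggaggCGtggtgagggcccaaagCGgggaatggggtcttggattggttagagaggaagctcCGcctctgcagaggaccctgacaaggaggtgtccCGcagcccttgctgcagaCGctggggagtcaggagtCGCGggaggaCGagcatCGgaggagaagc
Mest promoter: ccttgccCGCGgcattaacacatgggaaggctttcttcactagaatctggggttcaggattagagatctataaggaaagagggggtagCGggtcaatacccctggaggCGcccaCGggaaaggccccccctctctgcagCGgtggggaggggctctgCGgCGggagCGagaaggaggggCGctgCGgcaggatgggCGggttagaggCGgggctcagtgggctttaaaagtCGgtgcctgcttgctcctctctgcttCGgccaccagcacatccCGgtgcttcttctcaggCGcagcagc

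Taking each gene's promoter with the most CpG, 27025 genes had a median of 8 CpG, and 34 of the 40 listed imprinted genes had a promoter in the set, with a median of 16. Thus 28 of the 34 lay above the median gene, and Slc38a4 lay below it. The letters TGCCGC, which the imprint-protecting zinc finger protein ZFP57 is known to bind when methylated, were searched on both strands and occurred in 8 of the 34 promoters, Mest among them, and in 12.2% of all genes. The letters CACGTG, the canonical E-box of MYC proteins, occurred in 3 (Plagl1, Igf2r and Ppp1r9a) and in 7.39% of all genes. A match is only a stretch of letters, and binding was not measured.

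At the Dlk1-Dio3 locus the paternally expressed gene fell and the maternally expressed noncoding RNAs were not called. Dlk1, a transmembrane protein of the Notch ligand family found on many immature cells, read 6.84, 6.55, 6.98 and 6.65 in tumour lines 3 to 6, 10.33 on the GFP-labelled array, and 11.53, 11.42 and 11.52 in parental cells. The 4 lines fell in a narrow band below all other arrays, and the GFP-labelled array lay in between. Dlk1 was 26.7-fold lower in the tumour lines (-4.74, SE 0.11, adjusted p = 5.99e-08, limma), and it was lower on the GFP-labelled array by 1.16.

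Meg3, the maternally expressed noncoding RNA of the same locus, read 7.18, 7.10, 7.11 and 7.17 in the tumour lines, 7.04 on the GFP-labelled array, and 7.00, 7.17 and 7.21 in parental cells, so the groups overlapped. Its 11 probe sets ranged from 4.08 to 7.21 over all arrays, and 0 were called by limma in the tumour lines (0 at an unadjusted p under 0.05). The maternally expressed RNAs Rian (-0.07), host of small nucleolar RNAs, and Mirg (-0.11), host of microRNAs, were not called, and their probe sets stayed at or under 6.31 on all arrays. The median gene of the table stood at 7.46 in mean level and the median probe set at 6.31, so the Meg3 probe set used lay between them. Past Mirg in the RefSeq gene order, 3110009F21Rik was higher in the tumour lines by 1.38 (adjusted p = 0.000656, limma). Dio3os, the RNA antisense to Dio3, was higher too, with means of 7.03 in the tumour lines and 6.03 in parental cells (adjusted p = 0.000157, limma), whereas Wdr25 (-0.38) and Wars (-0.10) on the Dlk1 side were not called.

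The 3 listed genes of the Peg3 locus were lower in the tumour lines, while the adjoining imprinted genes Zim2 (-0.03) and Zim3 (0.09) were dim and not called. Peg3, a paternally expressed zinc finger protein, read 8.44, 8.67, 8.68 and 8.29 in tumour lines 3 to 6, 10.41 on the GFP-labelled array, and 12.82, 12.79 and 12.69 in parental cells. The groups did not overlap, and the GFP-labelled array was again intermediate. The differences from parental cells were -4.25 in the tumour lines (SE 0.11, adjusted p = 8.72e-08, limma) and -2.36 on the GFP-labelled array. Of 5 Peg3 probe sets, 3 were lower (-4.25 to -3.95) and the other two were not called and dim. Usp29 (-0.40), a paternally expressed deubiquitinase gene, and Zim1 (-0.58), a maternally expressed zinc finger gene beside Peg3, were called lower from dim levels, with parental means of 5.61 and 4.93.

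Mest, a paternally expressed member of the alpha/beta hydrolase family whose RNA is abundant in embryonic mesoderm, fell in every line but not evenly. It read 8.81, 7.94, 9.24 and 10.30 in tumour lines 3 to 6, 9.08 on the GFP-labelled array, and 12.75, 12.70 and 12.76 in parental cells. The GFP-labelled array lay among the tumour lines. The differences from parental cells were -3.67 in the tumour lines (SE 0.46, adjusted p = 0.000369, limma) and -3.66 on the GFP-labelled array. The adjoining genes Cep41 (-0.48) and Copg2 (-0.41, part of whose RNA is imprinted) were also lower, by less.

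**Figure D2:**
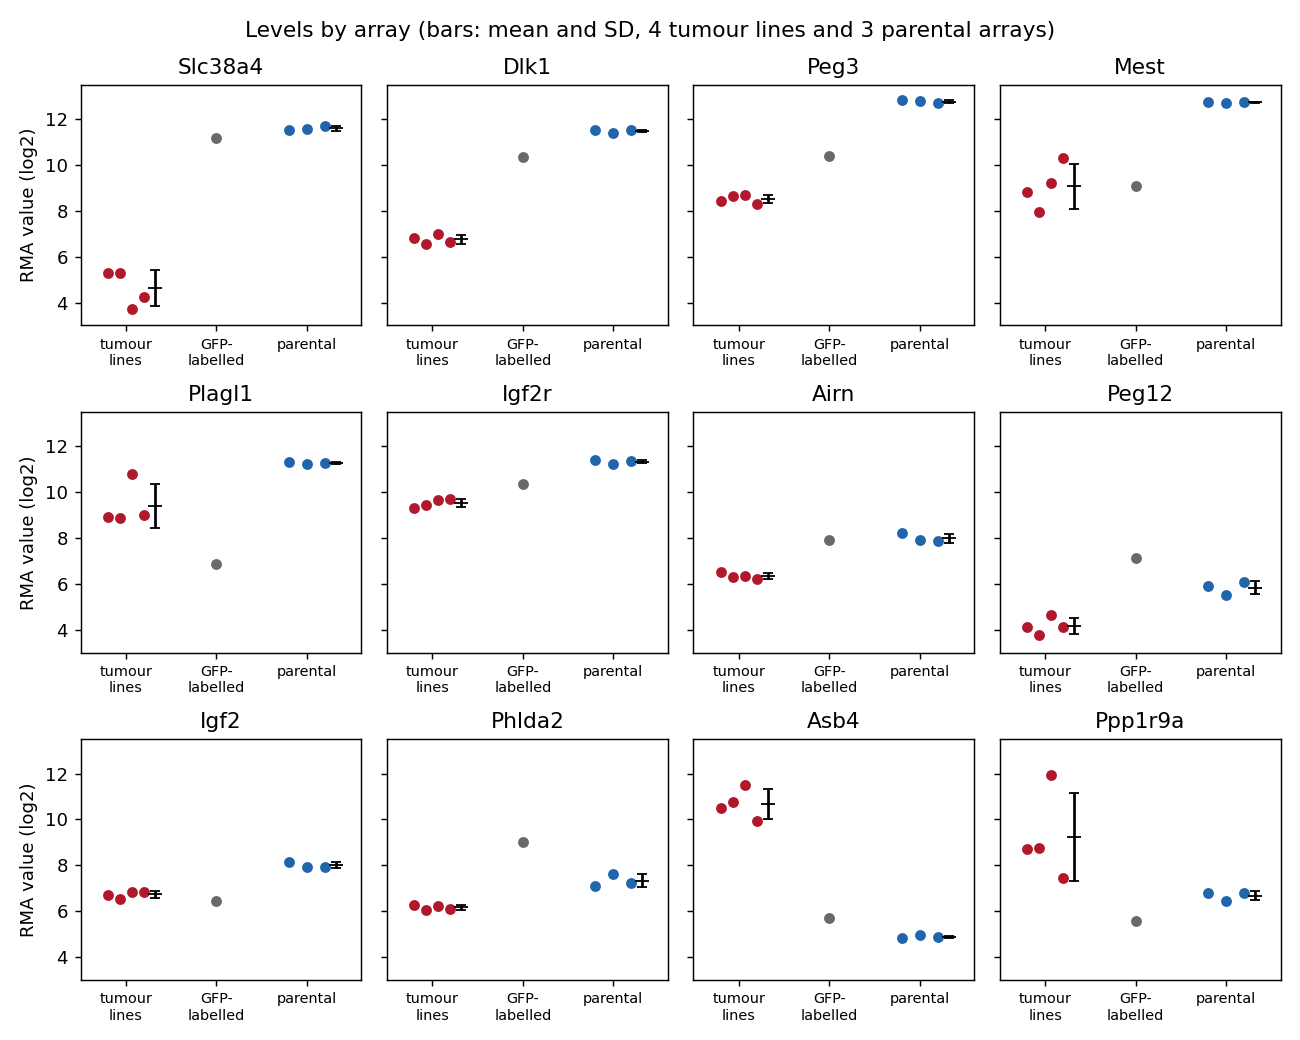
Each panel shows 1 gene's RMA value (log2) on each array, with tumour lines in red, the GFP-labelled array in grey and parental arrays in blue; bars give the mean and SD of the 4 tumour lines and of the 3 parental arrays. The GFP-labelled point of Slc38a4 (11.20) and Airn (7.90) sits with the parental arrays, that of Mest (9.08) with the tumour lines, and those of Phlda2 (9.01) and Peg12 (7.13) above both.

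Among the growth factor pair, both the ligand and the receptor were lower. Igf2, the paternally expressed insulin-like growth factor, read 6.72, 6.53, 6.83 and 6.83 in tumour lines 3 to 6, 6.43 on the GFP-labelled array, and 8.15, 7.94 and 7.91 in parental cells. Every tumour line and the GFP-labelled array lay below every parental array. The difference from parental cells was -1.27 in the tumour lines (SE 0.10, adjusted p = 2.99e-05, limma) and -1.56 on the GFP-labelled array. A second Igf2 probe set was dim and not called. In the gene order of RefSeq, Mrpl23 (-1.28), a mitochondrial ribosomal protein gene, Tnnt3 (-0.89), a muscle troponin gene, and Lsp1 (-0.89) on the H19 side were lower as well, whereas Igf2os (0.00), Ins2 (0.01) and Th (0.11) on the other side were not called.

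Igf2r, the maternally expressed receptor that clears IGF2 and carries lysosomal enzymes, read 9.30, 9.45, 9.68 and 9.70 in the tumour lines, 10.36 on the GFP-labelled array, and 11.39, 11.25 and 11.38 in parental cells. The tumour lines lay lowest and the GFP-labelled array between the groups. The difference was -1.81 in the tumour lines (SE 0.11, adjusted p = 7.44e-06, limma) and -0.99 on the GFP-labelled array, and both Igf2r probe sets were lower.

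Airn, the paternal noncoding RNA that runs antisense over the start of Igf2r and silences it in cis on the paternal copy, was lower too. It read 6.54, 6.32, 6.34 and 6.23 in the tumour lines, 7.90 on the GFP-labelled array, and 8.21, 7.90 and 7.85 in parental cells. The tumour lines lay below all other arrays, while the GFP-labelled array lay within the parental range. The difference was -1.63 in the tumour lines (SE 0.11, adjusted p = 1.29e-05, limma), all 5 Airn probe sets were lower, and the GFP-labelled array (-0.09) was not called. Receptor and antisense RNA were both lower here, in total RNA. The nearest measured genes, Slc22a2 (0.16) and Mas1 (0.04), were not called.

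Other genes of IGF signalling did not share 1 direction. Of 13 measured genes of that list, 5 were higher and 2 lower in the tumour lines, against 16.6% and 19.4% of all genes, with a median of 0.14. The binding protein genes Igfbp4 (3.31), Igfbp7 (3.02) and Igfbp2 (1.51) were higher, and the adaptor gene Irs1 was lower (-1.34). On the GFP-labelled array Igfbp4 (-1.82), Igfbp7 (-1.78) and Igfbp2 (-2.69) were lower than in parental cells. The call of Irs1 was lost when any 1 parental array was left out (-1.36 to -1.32, adjusted p 0.0521 to 0.0586).

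The Kcnq1 locus is governed by the paternal noncoding RNA Kcnq1ot1. Of its 6 listed genes 3 were called, all lower in the tumour lines, and Phlda2 differed most. Over all genes 19.4% were called lower and 16.6% higher. The other measured genes inside the locus, Trpm5 (0.06), Kcnq1 (0.01) and 4933417O13Rik (-0.08), were not called. Phlda2, a maternally expressed gene that restrains growth of the placenta, read 6.26, 6.03, 6.24 and 6.11 in tumour lines 3 to 6, 9.01 on the GFP-labelled array, and 7.11, 7.63 and 7.24 in parental cells. The tumour lines were lowest and the GFP-labelled array highest, with no overlap. The difference from parental cells was -1.17 in the tumour lines (SE 0.13, adjusted p = 0.000182, limma) and 1.68 on the GFP-labelled array (adjusted p = 0.000778).

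Cdkn1c, the maternally expressed inhibitor of cyclin-dependent kinases, was dim everywhere. It read 4.47, 4.50, 4.27 and 4.37 in the tumour lines, 4.17 on the GFP-labelled array, and 4.42, 4.97 and 4.43 in parental cells, and it was not called. Kcnq1ot1 read 7.92, 8.01, 7.71 and 7.89 in the tumour lines, 8.68 on the GFP-labelled array, and 8.36, 8.18 and 8.19 in parental cells. The tumour lines lay just below the parental arrays, by 0.36 (SE 0.09, adjusted p = 0.0142, limma). Without parental array 1 that call was lost (-0.30, adjusted p = 0.0667). Of its 6 probe sets, 2 were lower. Cd81, a maternally expressed tetraspanin gene at the edge of the locus, was lower by 0.75 in the tumour lines and by 0.88 on the GFP-labelled array. The transporter gene Slc22a18 (0.05) and Tssc4 (0.05) were not called.

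Plagl1 and Grb10, growth regulators in loci of their own, were lower. Plagl1, a paternally expressed zinc finger protein that slows the cell cycle, read 8.92, 8.87, 10.82 and 8.99 in tumour lines 3 to 6, 6.88 on the GFP-labelled array, and 11.34, 11.24 and 11.27 in parental cells. Tumour line 5 lay well above the other lines, yet below the parental arrays, and the GFP-labelled array was lowest. The difference from parental cells was -1.88 in the tumour lines (SE 0.44, adjusted p = 0.00985, limma) and -4.40 on the GFP-labelled array. Without tumour line 5 it was -2.35. Of the Plagl1 probe sets whose names do not mark shared probes, the brighter was lower by 0.43, still called. The dimmer (-0.58) was not called (adjusted p = 0.0521, limma). On the GFP-labelled array these differed from parental cells by only -0.44 and -0.94, and were not called. Grb10, a maternally expressed adaptor that dampens insulin and IGF receptor signals, was lower by 0.79 in the tumour lines and by 0.60 on the GFP-labelled array, with all 3 of its probe sets lower.

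In the Snrpn-Ube3a region 2 of the 6 listed genes were called, both lower in the tumour lines. Over all genes 19.4% were called lower and 16.6% higher, so few calls set this region apart. None of the 7 other measured genes inside it was called, Snhg14 (-0.09) and Ipw (-0.06) among them. Peg12, a paternally expressed intronless gene related to the Wnt pathway gene Frat1, read 4.12, 3.79, 4.62 and 4.11 in the tumour lines, 7.13 on the GFP-labelled array, and 5.90, 5.54 and 6.08 in parental cells. The tumour lines lay lowest and the GFP-labelled array highest. The only Peg12 probe set was dim, with a mean of 5.16 over all arrays. The difference from parental cells was -1.68 in the tumour lines (SE 0.20, adjusted p = 0.000272, limma) and 1.29 on the GFP-labelled array. Mkrn3, a paternally expressed zinc finger gene, was lower by 0.70, from a parental mean of 5.91.

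The other listed genes of the region were not called. They were Snrpn (-0.02), a splicing protein gene, Magel2 (0.07) and Ndn (-0.02), both MAGE family genes, and Ube3a (-0.23, adjusted p = 0.0594), a ubiquitin ligase gene imprinted in neurons. Ube3a was lower in 7 of 17 alternative settings (adjusted p 0.0246 to 0.208 over the 17), and of its 6 probe sets, tested singly, 2 were lower in the tumour lines and 2 higher on the GFP-labelled array. Ndn hid a spread between lines: it read 9.78, 9.00, 10.96 and 9.91 in tumour lines 3 to 6, 8.36 on the GFP-labelled array, and 9.92, 9.88 and 9.99 in parental cells. Tumour line 5 lay above the parental arrays, lines 4 and 3 below them, line 3 by little, and line 6 within their range.

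The Peg10-Sgce locus held the largest rise among the imprinted genes, that of Asb4. Of its other listed genes, Sgce was called higher by its brighter probe set only, and Peg10 and Ppp1r9a were not called. Asb4, a maternally expressed gene for an ankyrin-repeat adaptor of a ubiquitin ligase, read 10.50, 10.77, 11.52 and 9.93 in tumour lines 3 to 6, 5.71 on the GFP-labelled array, and 4.85, 4.93 and 4.86 in parental cells. All tumour lines lay far above the other 4 arrays. The difference from parental cells was 5.80 (SE 0.31, adjusted p = 3.49e-06, limma), 55.7-fold higher, and both Asb4 probe sets were higher. The GFP-labelled array (0.83) was not called.

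Ppp1r9a, the maternally expressed gene for the actin-binding protein neurabin 1, stood out after the values were seen. It read 8.70, 8.76, 11.96 and 7.46 in tumour lines 3 to 6, 5.57 on the GFP-labelled array, and 6.80, 6.43 and 6.79 in parental cells. Every tumour line lay above every parental array, and line 5 lay far above the other lines. The difference of 2.55 (SE 0.89) was not called (adjusted p = 0.0550, limma). Without tumour line 5 it was 1.63 (adjusted p = 0.0063), and without line 6 it was 3.13 (adjusted p = 0.0213). Of its 5 probe sets, a dim one was called higher (1.06) and another dim one lower (-0.40).

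The promoters of both genes are shown for contrast, with CpG in capitals as above. Asb4 (chr6:5390160-5390459, plus strand) has 8 CpG, at the median of all genes, and Ppp1r9a (chr6:4903061-4903360, plus strand) has 48, the most among the 34.
Asb4 promoter: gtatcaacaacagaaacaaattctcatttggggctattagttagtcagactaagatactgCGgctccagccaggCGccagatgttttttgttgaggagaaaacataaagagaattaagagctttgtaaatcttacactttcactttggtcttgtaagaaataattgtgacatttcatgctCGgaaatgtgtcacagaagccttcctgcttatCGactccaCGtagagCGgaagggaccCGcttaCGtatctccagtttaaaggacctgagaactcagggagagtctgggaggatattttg
Ppp1r9a promoter: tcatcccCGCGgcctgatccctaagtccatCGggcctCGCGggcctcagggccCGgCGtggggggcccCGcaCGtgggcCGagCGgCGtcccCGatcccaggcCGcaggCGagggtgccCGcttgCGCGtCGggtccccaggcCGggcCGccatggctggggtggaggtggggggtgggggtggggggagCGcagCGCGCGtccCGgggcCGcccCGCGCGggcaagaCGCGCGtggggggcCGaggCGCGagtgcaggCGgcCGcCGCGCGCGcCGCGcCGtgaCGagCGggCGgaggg

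Peg10 and Sgce, the paternally expressed core of the locus, share a control region. Peg10, a gene derived from a retrotransposon and needed in the placenta, read 6.62, 6.75, 6.99 and 6.30 in tumour lines 3 to 6, 4.52 on the GFP-labelled array, and 6.88, 7.02 and 6.99 in parental cells. Tumour lines and parental arrays overlapped, and the GFP-labelled array lay apart, 2.44 below parental (SE 0.22, adjusted p = 0.000231, limma). The tumour-line difference was -0.30 and was called without tumour line 5 (-0.41, adjusted p = 0.0347). Sgce, the epsilon-sarcoglycan gene, read 9.75, 9.91, 9.94 and 9.79 in the tumour lines, 7.94 on the GFP-labelled array, and 9.41, 9.45 and 9.37 in parental cells. It was higher in the tumour lines by 0.44 (SE 0.07, adjusted p = 0.00195, limma) and lower on the GFP-labelled array by 1.47. A second, dim Sgce probe set was lower in the tumour lines by 0.30, and the mean of both probe sets was not called (0.07).

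Genes between Ppp1r9a and Asb4 were looked at after these values were seen. In the RefSeq gene order the measured genes there are the paraoxonase genes Pon1, Pon3 and Pon2, which encode lactonases. Pon3 had 9.71 ± 0.46 in the tumour lines (SD, n = 4), 4.60 on the GFP-labelled array and 4.61 ± 0.21 in parental cells (SD, n = 3), a difference of 5.09 (adjusted p = 1.66e-06, limma). Pon2 had 10.08 ± 0.10 in the tumour lines (SD, n = 4), 7.54 on the GFP-labelled array and 7.95 ± 0.04 in parental cells (SD, n = 3), a difference of 2.14 (adjusted p = 3.61e-07). Pon1 (0.10) was dim and not called. Past Asb4, the next gene, Pdk4, a kinase of pyruvate dehydrogenase, was lower by 0.58, and Dync1i1 (-0.11) and Slc25a13 (0.04) were not called. On the other side, past Sgce, Casd1 was lower by 1.16, and the collagen gene Col1a2 (2.99) and Bet1 (0.79) were higher.

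**Figure D3:**
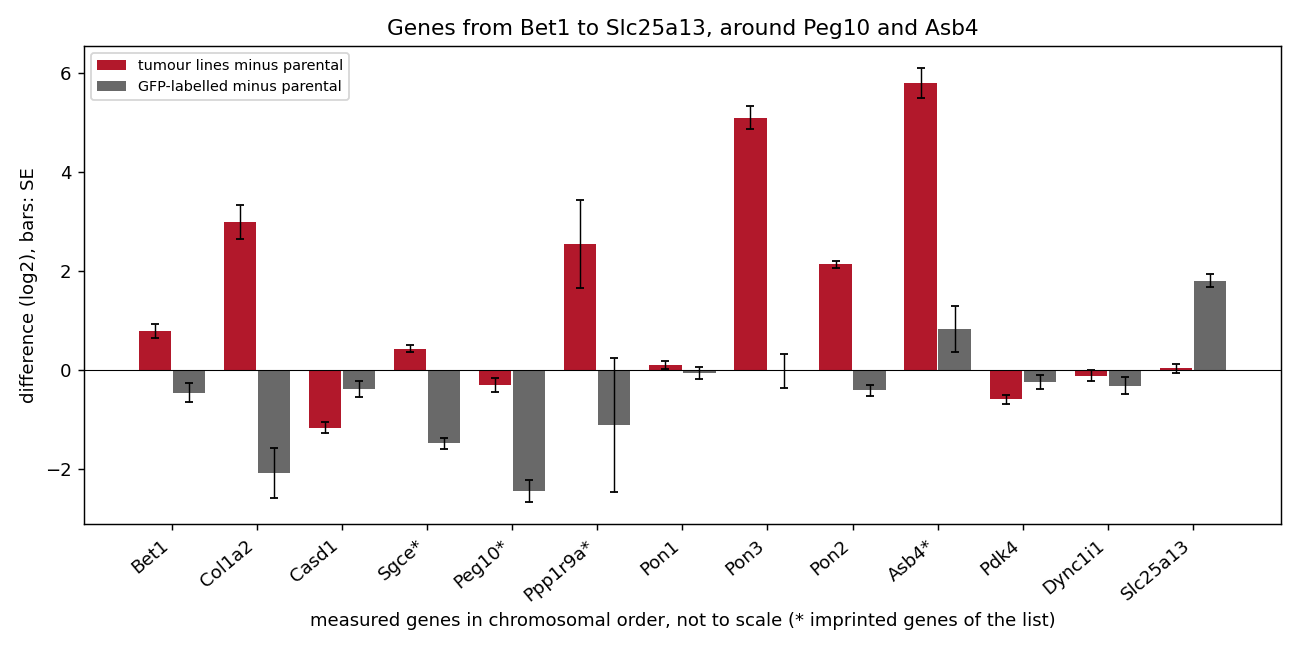
Bars give the log2 difference from the parental arrays of 13 measured genes in RefSeq order, with tumour lines in red and the GFP-labelled array in grey, and error bars give the SE of the fit. Tumour-line bars of Pon3 (5.09), Pon2 (2.14) and Asb4 (5.80) rise together, with Ppp1r9a at 2.55 and Pon1 at 0.10, and the GFP-labelled bars of these genes lie between -1.11 and 0.83.

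Over all loci, measured genes outside the list but in or beside its loci were called at shares near those of all genes. Some of them are imprinted themselves, Pon3, Pon2, Zim2 and Copg2 among them. Taking the genes inside the loci and the 3 nearest measured genes on each side, 133 genes outside the list had a median difference of -0.02. In the tumour lines 20 (15.04%) were called higher and 28 (21.05%) lower, against 16.6% and 19.4% of all genes. In a chosen list of 14 genes that host or adjoin an imprinted gene, given below, 42.9% were called lower.

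Of the remaining imprinted genes, 1 rose and 1 fell. Impact, a paternally expressed inhibitor of the stress kinase GCN2, read 11.20, 11.41, 11.44 and 11.12 in the tumour lines, 10.51 on the GFP-labelled array, and 10.37, 10.46 and 10.21 in parental cells. It was higher in every tumour line, by 0.95 (SE 0.10, adjusted p = 0.000187, limma). Inpp5f, a phosphatase gene with a paternally expressed short form, was lower by 0.48.

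Gnas, a complex locus with transcripts from either allele, had its brightest probe set level in tumour lines and parental cells (0.00), and lower by 0.50 on the GFP-labelled array. Its probe sets disagreed: one was called higher in the tumour lines (1.57) and one lower (-0.64). Nnat (0.05), the neuronatin gene, Nap1l5 (0.04), Zdbf2 (0.00) and Rasgrf1 (0.09), a Ras exchange factor gene, were not called. Nnat ranged from 4.61 in line 6 to 6.44 in line 4.

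Dcn, the maternally expressed gene for the matrix proteoglycan decorin, differed between lines. It read 9.63, 9.19, 11.17 and 9.08 in tumour lines 3 to 6, 5.70 on the GFP-labelled array, and 9.96, 9.87 and 9.59 in parental cells. Tumour line 5 lay above all parental arrays, line 3 within their range, lines 4 and 6 below them, and the GFP-labelled array far below. The tumour-line difference was -0.04 and not called, and without line 5 it was -0.50 (adjusted p = 0.0449, limma). The GFP-labelled array was lower by 4.11 (SE 0.68, adjusted p = 0.00484). Decorin is also a product of fibroblasts. Of 6 fibroblast markers, 4 were higher in the tumour lines, among them Thy1 (15.9-fold) and, on the log2 scale, Col1a2 (2.99) and Pdgfra (2.56), and 1, Fap, was lower (-5.31). Shares of all genes were 16.6% higher and 19.4% lower. The mean level of the 6 markers was 8.60 to 9.19 in the tumour lines, 5.75 on the GFP-labelled array and 7.97 to 8.13 in parental cells. The part of these marker differences in the Dcn values was not tested.

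**Figure D4:**
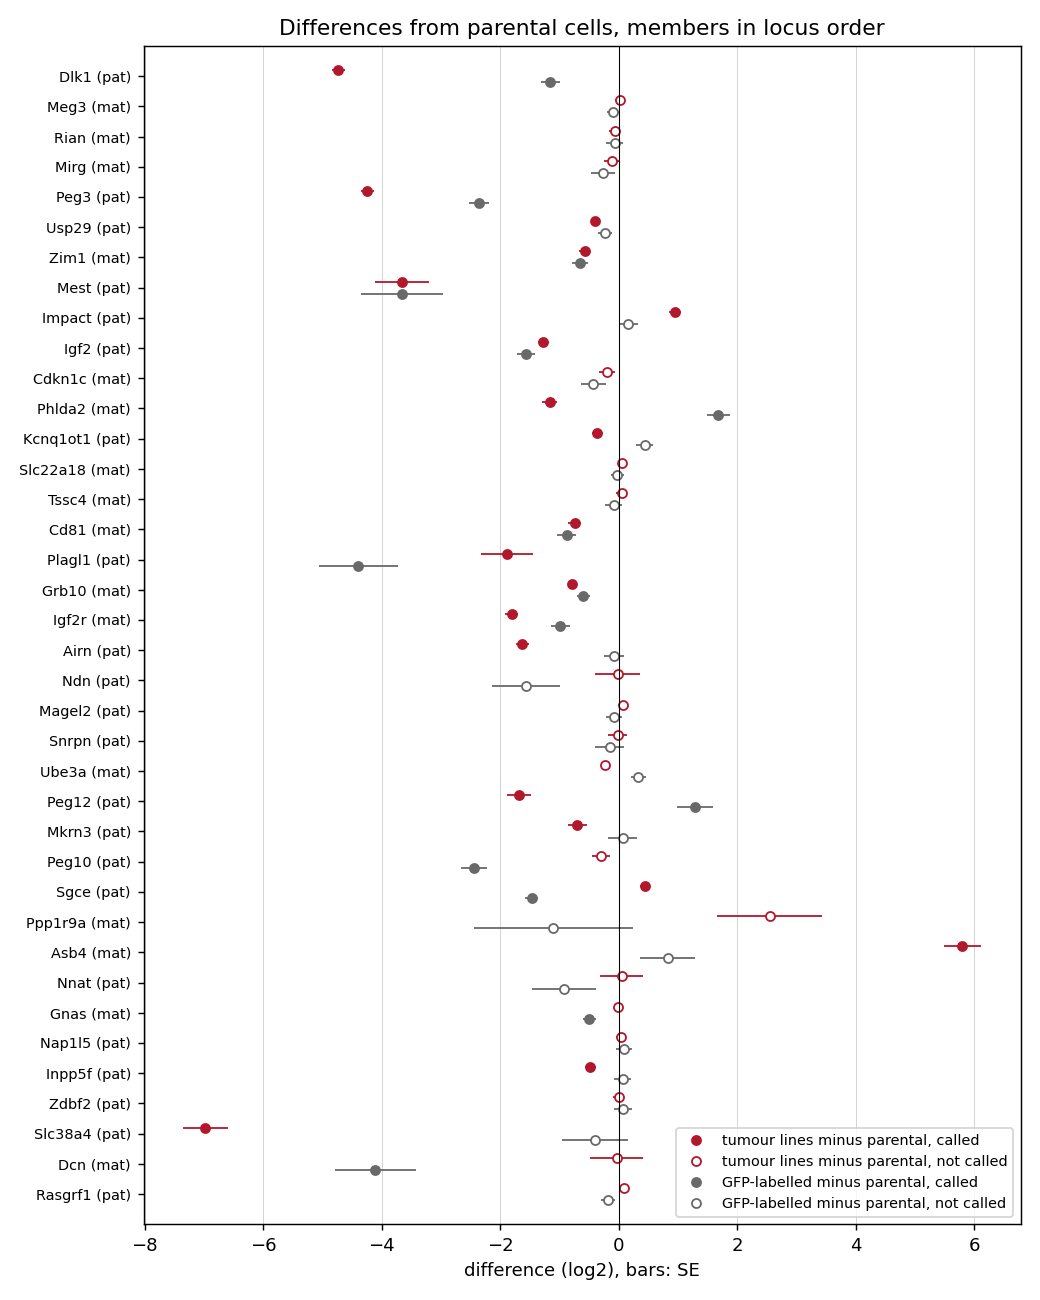
Points give the log2 difference from the parental arrays for the tumour lines (red) and the GFP-labelled array (grey), filled where the adjusted p is under 0.05, and bars give the SE of the fit. Phlda2 (-1.17 and 1.68), Peg12 (-1.68 and 1.29) and Sgce (0.44 and -1.47) have filled points on opposite sides of 0.

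The GFP-labelled array differed from parental cells at 15 imprinted genes, and its Mycn value goes against its label. Of the 38, 2 were called higher (1 without parental array 1 or 2) and 13 lower, against 7.43% and 8.66% of all genes. With at least 2-fold change, Phlda2 and Peg12 were higher and Plagl1, Dcn, Mest, Peg10, Peg3, Igf2, Sgce and Dlk1 lower, against 1.85% and 3.90% of all genes. The median difference was -0.25, against 0.00 for all genes. These calls rest on 1 array whose spread is borrowed from the other groups, and both comparisons share the 3 parental arrays.

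Set directly against the GFP-labelled array, 7 imprinted genes were higher in the tumour lines and 11 lower, against 14.0% and 16.4% of all genes. Slc38a4 (-6.58) and Dlk1 (-3.58) lay furthest below the GFP-labelled array, and Asb4 (4.97) and Dcn (4.07) furthest above it. Mest (-0.01) and Igf2 (0.29) were not called in that comparison.

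Several imprinted genes differed widely between the 4 tumour lines, a pattern seen after the values were known and given without a test. In SD between the 4 lines, 8 of the 38 imprinted genes (21.1%) lay at or above the 95th percentile of all genes: Ppp1r9a, Mest, Dcn, Plagl1, Ndn, Slc38a4, Nnat and Asb4. Of these, Slc38a4 (3.70 to 5.30) and Nnat (4.61 to 6.44) were dim in the tumour lines. The part of background signal in their spread was not tested. Tumour line 5 had the highest value for 18 of the 38 (47.4%), against 26.2% of all genes. Among the 19 imprinted genes above the median gene in level it was highest for 11, against 23.6% of genes at such levels. Those included Plagl1, Ndn, Dcn, Ppp1r9a and Asb4, whereas Mest was highest in line 6 and Slc38a4 in line 3.

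Genes that read, write or protect imprints were also measured. Of 22 genes for imprint maintenance and DNA methylation, 11 were lower and 1 was higher in the tumour lines, against 19.4% and 16.6% of all genes, with a median of -0.30. The list is bright, with a mean level of 9.33 to 9.41 in the tumour lines. Among genes above the median gene in level, 31.4% were lower and 23.2% higher, which is the closer comparison. Dnmt3a, a methyltransferase that sets germ-line imprints, had 7.20 ± 0.19 in the tumour lines (SD, n = 4), 8.86 on the GFP-labelled array and 9.19 ± 0.14 in parental cells (SD, n = 3), and fell by 1.99. Its cofactor gene Dnmt3l rose by 2.05 and the retinoblastoma-binding gene Arid4a fell by 1.23. Zfp57 (-0.39), Trim28 (-0.48), its corepressor, and Ctcf (-0.50), a boundary protein, were lower by less, and the maintenance methyltransferase gene Dnmt1 (0.05) was not called. On the GFP-labelled array, 6 of the 22 were higher and 1 lower than in parental cells, against 7.43% and 8.66% of all genes, Zfp57 (0.50) among the higher. For genes above the median gene those shares were 11.7% and 13.6%.

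Of 26 further imprinted genes measured, 6 were higher and 3 lower in the tumour lines, against 16.6% and 19.4% of all genes, with a median of 0.08. Those past 2-fold were Pon3, Pon2 and Sfmbt2 (3.67, SE 0.42), a paternally expressed Polycomb gene of the placenta. Of 14 genes that host or adjoin an imprinted gene, 1 was higher (7.14%) and 6 lower (42.9%), led by Mrpl23 and Casd1. Shares of all genes were 16.6% higher and 19.4% lower. Copg2, Blcap and Commd1 stand in both of these lists.

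Markers of cells that tumours can bring in were read for the same reason. Of 8 leukocyte markers, Cd14 (1.83), Cd68 (0.80) and Lyz2 (0.49) were higher in the tumour lines, while Ptprc, the common leukocyte antigen, stayed near 4.08 in the tumour lines and 4.14 in parental cells. Of 5 endothelial markers, 0 were called by limma in the tumour lines (0 at an unadjusted p under 0.05). Of 4 muscle markers 2 were higher, and of 2 fat markers measured Fabp4 was lower. Shares of all genes in the tumour lines were 16.6% higher and 19.4% lower. On the GFP-labelled array Fabp4 was higher than in parental cells by 2.65 (adjusted p = 0.000156, limma), the endothelial Cdh5 by 1.96 (adjusted p = 9.12e-05) and Cd68 by 0.75, and their part in the other differences of that array was not tested. In bulk RNA, fewer cells of a type and less RNA per cell cannot be told apart.

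Probe sets of 1 gene often differed in their call. When all probe sets were tested singly, 35 of the 104 were lower, 7 higher and 62 not called in the tumour lines, against 18.4% lower and 15.5% higher of all probe sets. Of 17 genes with several probe sets and at least 1 called, 6 had all called the same way and 8 had some called one way and the rest not called. The other 3, Sgce, Ppp1r9a and Gnas, had probe sets called in opposite directions. Of the 50 below the median probe set of the table, 12 were called, and of the 54 above it, 30 were called.

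**Figure D5:**
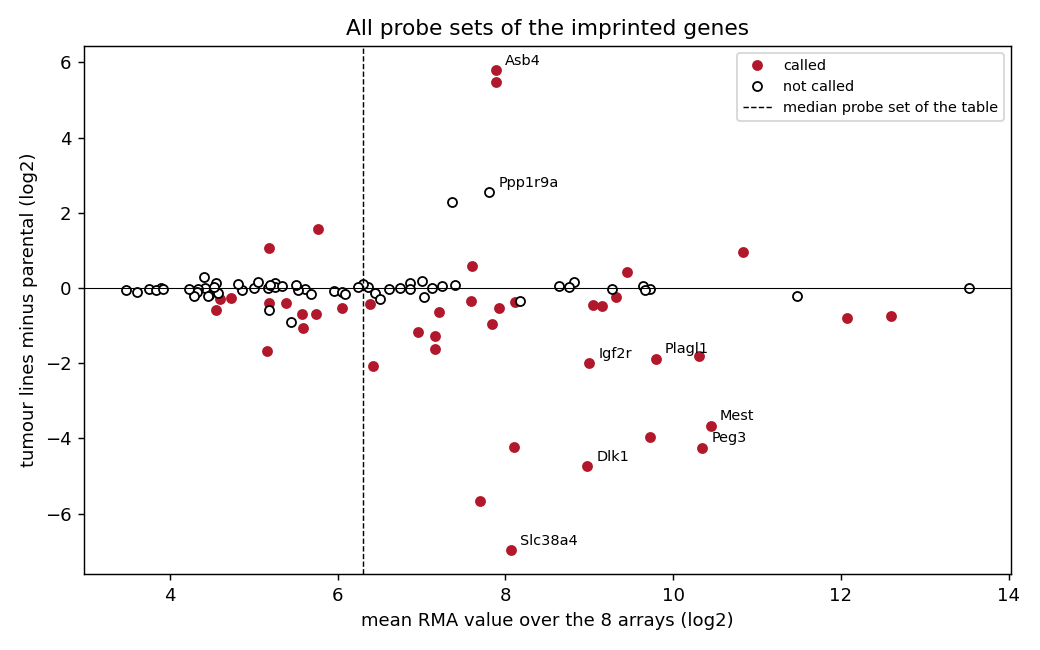
Each point is 1 of the 104 probe sets, with its mean RMA value over the 8 arrays (log2) on the horizontal axis and the tumour-line difference from parental cells (log2) on the vertical axis, filled where called. Left of the dashed line, the median probe set at 6.31, 38 of 50 points are open.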

How the data were processed

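RNA of 8 samples was measured on 1 Affymetrix expression array each. The deposited table gives, per the submitters' processing notes, values made by the authors with RMA, which corrects background, normalizes arrays to 1 distribution and summarises the probes of a probe set; Partek is named too, without versions. The deposited values are on a log2 scale, judged from their range. No genome build is given in the labels used here. The RMA step pulls dim genes towards a floor, so their differences are understated, and makes all values relative to the array. No scanner files or detection calls were used. The number of arrays limits the precision.

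Of 45101 probe sets, 34945 carried 1 gene symbol in the platform annotation, 932 several and 9160 none, and 64 were controls. For each of 18193 genes the probe set brightest on average over the 8 arrays was used. RefSeq names (GRCm38.p6) held 34741 of the IDs, and 0 symbols changed.

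Groups came from source names, and array numbers from titles. limma 3.58.1 in R 4.3.3 fitted 3 groups over all 8 arrays, two-sided, with Benjamini-Hochberg adjustment over all genes and a threshold of 0.05. The fit was tested on simulated data. Differences are tumour lines or the GFP-labelled array minus parental cells unless said otherwise. Every imprinted gene with a probe set is named. Values on each array are given for those called with at least 2-fold change in either comparison with parental cells and for reciprocal pairs, and up to 4 genes called past 2-fold are named from each list. Genes outside this rule, such as neighbours, were named after their values were seen. The imprinted genes and all lists were chosen with earlier results of these data known. Promoters came from RefSeq through Python 3.11.15. The alternatives changed the probe set, filter, variance prior, weights, scaling and the arrays included.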

Additional observations from a re-analysis of the deposited data

Results flagged for a closer look

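In the 4 tumour lines, 2 imprinted genes had 1 line standing apart by Dixon's test at the 95% level, which chance gives in about 1 of 20 groups. Plagl1 read 10.82 in tumour line 5, against 8.87 to 8.99 in the other lines. Nap1l5, a dim gene, read 4.38 in tumour line 5, against 4.58 to 4.60 in the other lines. These are 5.26% of the imprinted genes, and 5.79% of all genes had a line standing apart in the same way. The cause was not tested.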

How the results depend on the processing

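The count of imprinted genes lower in tumour lines than in parental cells fell to 11, against 17, when only genes above the median level were tested, by which 19 of the 38 were left out. Under that filter, 7 rather than 11 were lower in tumour lines than on the GFP-labelled array, and 1 rather than 2 was higher on the GFP-labelled array than in parental cells. Leaving out 1 array at a time gave 16 to 19 lower and 3 to 4 higher in tumour lines against parental cells, 10 to 14 lower and 1 to 3 higher on the GFP-labelled array against parental cells, and 10 to 11 lower and 5 to 9 higher in tumour lines against the GFP-labelled array. The other counts stayed within 1.5 times.

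The 10 imprinted genes at least 2-fold lower and Asb4 kept their direction and call under every alternative in which they were tested, except Igf2 (-0.88) and Plagl1 (-0.78) with the GFP-labelled array pooled with the parental ones; its Mycn goes against its label. Pooled in that way, Zim1 (-0.41), Cd81 (-0.53) and Sgce (0.81) also lost their calls. With the mean of all probe sets, Kcnq1ot1 (-0.35) and Sgce (0.070) lost theirs, and Kcnq1ot1 also without parental array 1 (-0.30). The cause was not tested.

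Cdkn1c (-0.29 to -0.02), Ube3a (-0.31 to -0.18) and Ppp1r9a (1.11 to 3.13), not called, kept their sign; Ube3a passed the threshold in 7 of 17 alternatives and Ppp1r9a in 5. Other genes that were not called changed sign. With the GFP-labelled array pooled, Ndn was at 0.37, Snrpn at 0.024, Peg10 at 0.31, Gnas at 0.12 and Dcn at 0.99. With the mean of all probe sets, Rian was at 0.012, Ndn at 0.038, Gnas at 0.23 and Dcn at 0.056. With array weights, Ndn was at 0.017, Snrpn at 0.029 and Nnat at -0.048. With quantile normalization repeated, Ndn was at 0.027, Gnas at 0.0071 and Dcn at 0.010. Without probe sets marked as shared, Gnas was at 0.086 and Rasgrf1 at -0.016. Leaving out 1 array at a time, Meg3 ranged from -0.052 to 0.054, Rian from -0.12 to 0.016, Mirg from -0.21 to 0.0033, Slc22a18 from -0.0011 to 0.11, Tssc4 from -0.0015 to 0.12, Ndn from -0.37 to 0.29, Magel2 from -0.011 to 0.15, Snrpn from -0.22 to 0.17, Nnat from -0.27 to 0.34, Gnas from -0.028 to 0.038, Nap1l5 from -0.032 to 0.094, Zdbf2 from -0.088 to 0.097 and Dcn from -0.50 to 0.19.

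No paired analysis was possible because no 2 groups share more than 1 number. Low signal limits the dim genes most. Rian, Mirg, Cdkn1c, Magel2, Nnat, Nap1l5 and Rasgrf1, not called, were measured only below the median probe set. So were Usp29, Zim1, Peg12 and Mkrn3, which were called lower.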
